A study of Mus musculus with 8 samples.

Results

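Peaks of 4 reprogramming factors were examined at the genes of the Krüppel-like factors Klf2, Klf4 and Klf5. A peak was taken as a member when its summit, the position of the highest signal, lay in the gene body or within 100 kb of the first annotated start site. Of 661009 peaks, 242 met this rule, with 99 summits at Klf2, 80 at Klf4 and 63 at Klf5. The assay was CUT&Tag: transposase Tn5 is tethered by an antibody to chromatin, where it cuts and tags the DNA beside the bound protein. The cells were mouse embryonic fibroblasts (MEFs), and the antibody was against Flag, the tag carried by the delivered factor. The 8 libraries, from day 3 of reprogramming, cover Nanog, Oct4, Sox2 and Nr5a2 in their native form and as BiD fusions. BiD is the part of SS18 that binds BRG1, the motor subunit of the remodelling complex BAF, and was joined to the N-terminal end of each factor. Per the study's methods, the MEFs carried an Oct4-GFP reporter and the factors were delivered with retroviruses. The library titles name the profiled factor alone, so the other factors delivered to the same cells are not known for these libraries. Each group holds 1 library, so that no value is replicated within its group.

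Krüppel-like factors are transcription factors with zinc fingers at the C-terminus that bind GC-rich and CACCC-type sequences. In mouse embryonic stem cells Klf2, Klf4 and Klf5 have overlapping roles in self-renewal. Klf4 is one of the classical reprogramming factors and lies downstream of LIF and Stat3, Klf2 is a regulator of the naive state that also acts in endothelium, and Klf5 acts in the early embryo and in epithelia.

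Klf2 (ENSMUSG00000055148.7) lies on the plus strand of chromosome 8, from 72319033 to 72321656 in mm10. Klf4 (ENSMUSG00000003032.8) lies on the minus strand of chromosome 4, from 55527143 to 55532466. Klf5 (ENSMUSG00000005148.8) lies on the plus strand of chromosome 14, from 99298691 to 99315036. The surroundings of the genes differed. The windows of Klf4 and Klf5 held no start site of another protein-coding gene, although the body of Pibf1 reaches into that of Klf5. The Klf2 window held the first start sites of Fam32a at -99.3 kb, Ap1m1 at -79.0 kb and Gm10282 at -13.8 kb, and a further start site of Eps15l1 at +55.3 kb, whose first start site lies outside the window at +102.4 kb. All distances are from the first start site along the direction of transcription, so negative values are upstream. Of the 99 summits at Klf2, the nearest start site was that of Eps15l1 for 29, Gm10282 for 26, Ap1m1 for 22, Klf2 for 14 and Fam32a for 8. It was that of Klf4 for all 80 of its summits and Klf5 for 55 of 63. Summits in the promoter of another gene numbered 23 at Klf2 and 0 at Klf4 and Klf5. A summit counted at Klf2 can therefore belong to a neighbour.

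The whole lists held 54794 peaks in native Oct4 to 120594 in Sox2BiD. A height is the number of tags at the summit, which was 6 to 10 for the lowest peak of a library and 16 to 22 at the median. A score is 10 times the negative log10 of the peak caller's p-value. Heights are not scaled to depth, and the lists give no read totals. Promoters of 8 fibroblast genes (Col1a1, Col1a2, Col3a1, Twist1, Twist2, Prrx1, Thy1 and Fn1) held a summit in 7 or 8 cases in 7 libraries and in 4 cases in native Sox2.

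The plot of summits by distance shows the members in all libraries.

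**Figure D1:**
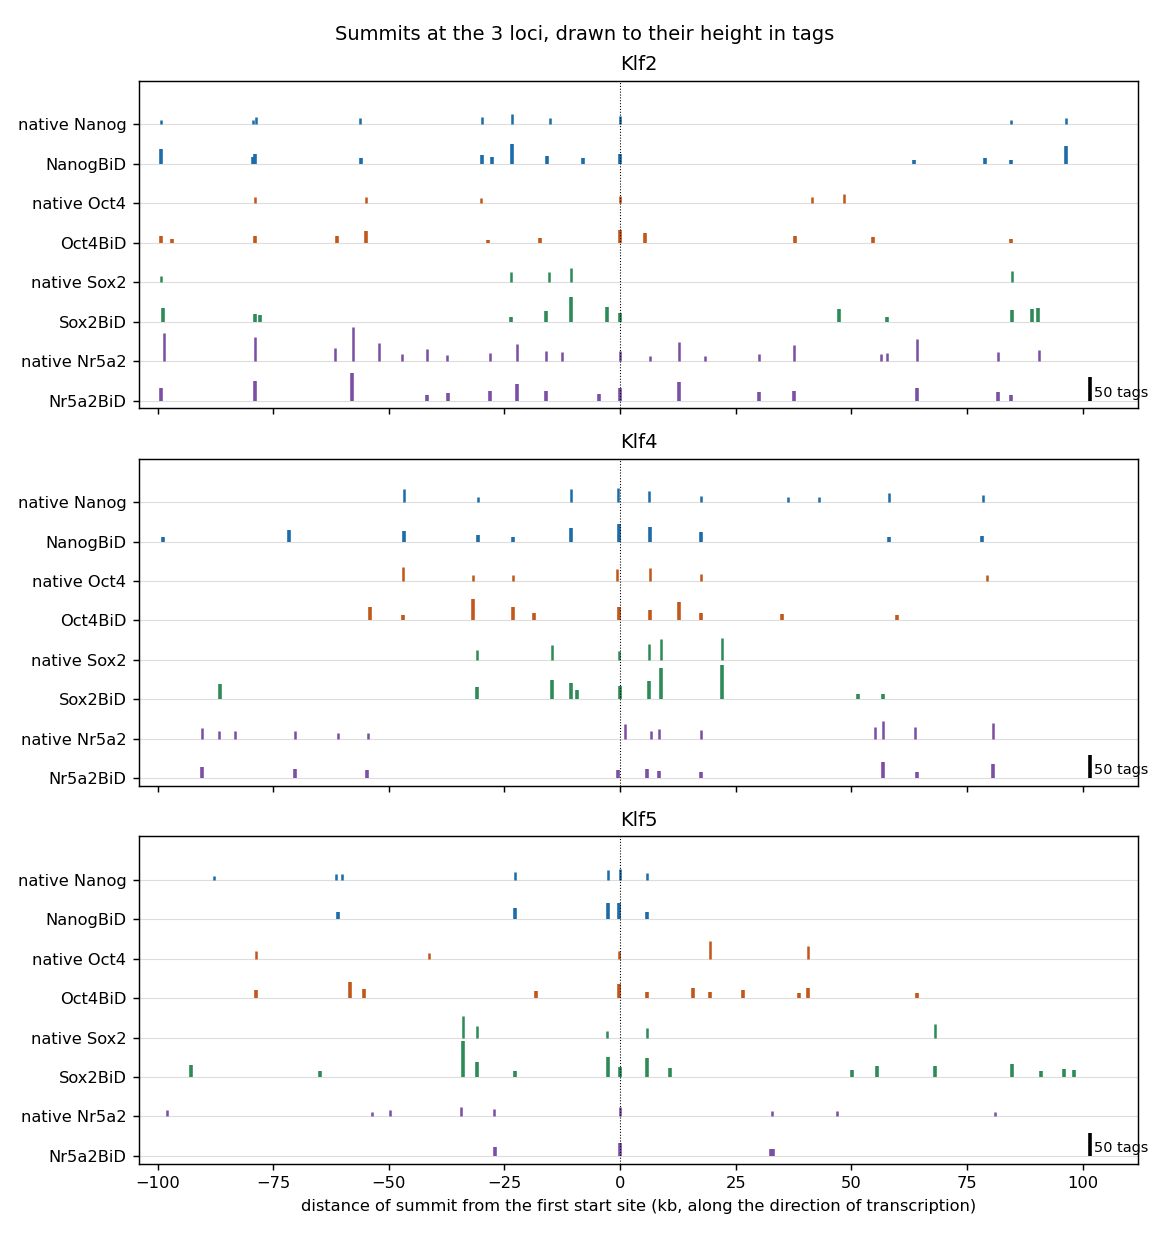
Each vertical line is a summit at its distance in kb from the first start site of Klf2, Klf4 or Klf5, with its length to the scale of the 50-tag bar; rows are the 8 libraries, coloured by factor, with thicker lines for BiD fusions. Rows of the same factor share many positions, the tallest lines stand at -57.9 kb of Klf2 in native Nr5a2 (74 tags), at +22.0 kb of Klf4 in Sox2BiD (73 tags) and at -33.9 kb of Klf5 in Sox2BiD (78 tags), and the native Sox2 row has no line at the start sites of Klf2 and Klf5.

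Sequence around the summits is shown for the sites where the letters of a factor's own motif lay within 50 bp of the summit in both the native and the BiD library. There were 6 such sites, 1 at Klf2, 4 at Klf4 and 1 at Klf5. The search used GCCATTA for NANOG, CCATTGTT for SOX, ATGCAAAT for the octamer that Oct4 binds, and CAAGGTCA or CAAGGCCA for NR5A, on both strands. Each sequence is the plus strand of mm10, with 50 bases on each side of the higher summit of both libraries, with the own motif in capitals.
Klf2, NanogBiD, chr8:72415287-72415387: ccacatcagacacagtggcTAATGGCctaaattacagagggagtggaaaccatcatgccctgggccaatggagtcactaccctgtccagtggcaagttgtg
Klf4, Oct4BiD, chr4:55564192-55564292: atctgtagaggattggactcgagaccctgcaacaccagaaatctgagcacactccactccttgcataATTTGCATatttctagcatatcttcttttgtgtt
Klf4, native Nr5a2, chr4:55524062-55524162: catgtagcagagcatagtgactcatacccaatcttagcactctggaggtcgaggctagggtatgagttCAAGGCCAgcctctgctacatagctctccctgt
Klf4, Sox2BiD, chr4:55523506-55523606: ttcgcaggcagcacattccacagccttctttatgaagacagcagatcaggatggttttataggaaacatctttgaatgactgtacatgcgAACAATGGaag
Klf4, Sox2BiD, chr4:55510437-55510537: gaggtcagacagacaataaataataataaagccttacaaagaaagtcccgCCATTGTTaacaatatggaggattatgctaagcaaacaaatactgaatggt
Klf5, Nr5a2BiD, chr14:99271547-99271647: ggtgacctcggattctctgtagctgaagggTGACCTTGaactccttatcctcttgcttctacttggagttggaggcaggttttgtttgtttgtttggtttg

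The NANOG letters in the first sequence lay at 96.3 kb from Klf2, in an intron of Eps15l1. The octamer upstream of Klf4 lay in an intron of the long non-coding RNA gene Gm12511, and the other 4 sites were intergenic. At the +22.0 kb site of Klf4 the SOX letters began at the Sox2BiD summit itself. The highest Sox2 summits of the other loci, at -10.6 kb of Klf2 and -33.9 kb of Klf5, are shown beside these because they held no match to the SOX letters within 50 bp.
Klf2, Sox2BiD, chr8:72308418-72308518: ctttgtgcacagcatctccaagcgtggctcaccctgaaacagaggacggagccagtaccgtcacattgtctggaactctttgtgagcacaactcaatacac
Klf5, Sox2BiD, chr14:99264744-99264844: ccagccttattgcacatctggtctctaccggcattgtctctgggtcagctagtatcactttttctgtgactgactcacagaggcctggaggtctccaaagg

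At the start sites, whether each factor's library held a promoter summit was asked first. Klf4 had a summit within 2 kb of an annotated start site in all 8 libraries, and Klf2 and Klf5 in 7, with native Sox2 as the library without one in both cases. Among 21911 protein-coding genes, 17.2% had such a summit in all 8 libraries and 32.6% in at least 7. In native Sox2, 25.2% of all genes had a promoter summit, against 39.0% to 63.5% in the other libraries. The native Sox2 summit nearest to the Klf2 start lay at -10.6 kb and that nearest to the Klf5 start at -2.8 kb.

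At the Klf2 promoter the heights were 19 tags in native Nanog, 22 in NanogBiD, 15 in native Oct4, 27 in Oct4BiD, 18 in Sox2BiD, 22 in native Nr5a2 and 28 in Nr5a2BiD. These 7 summits lay between -99 and +35 bp. At the Klf4 promoter the heights were 30 tags in native Nanog, 38 in NanogBiD, 25 in native Oct4, 29 in Oct4BiD, 20 in native Sox2, 29 in Sox2BiD, 32 in native Nr5a2 and 18 in Nr5a2BiD. The Klf4 summits were spread more widely, from -572 to +1006 bp. The summits of NanogBiD, Oct4BiD, Sox2BiD and native Sox2 lay between -191 and -137 bp, and those of native Nanog, native Oct4 and Nr5a2BiD between -572 and -538 bp. The native Nr5a2 summit, in an intron at +1006 bp, was 310 bp from another annotated Klf4 start. At the Klf5 promoter the heights were 24 tags in native Nanog, 35 in NanogBiD, 17 in native Oct4, 31 in Oct4BiD, 22 in Sox2BiD, 20 in native Nr5a2 and 27 in Nr5a2BiD, with all summits between -167 and -57 bp. At Klf2 and Klf5 the fusion was the higher form for Nanog, Oct4 and Nr5a2, and at Klf4 it was the higher form for Nanog, Oct4 and Sox2 and the lower for Nr5a2. Promoter peaks were not the highest-scoring of their libraries. Their scores lay above 22.5% to 86.3% of the peaks of the same library at Klf4, 41.8% to 73.7% at Klf2 and 40.7% to 85.4% at Klf5. Within 500 bp of a start site, 5 libraries still had a Klf4 summit and 7 a Klf2 or Klf5 summit.

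Promoter sequence is shown for Klf2 and Klf4 as the 250 bases before the RefSeq start (GRCm38.p6). The Klf2 stretch holds the Klf2 promoter summits of all libraries that had one except native Nanog. The Klf4 stretch holds the summits of NanogBiD, Oct4BiD, Sox2BiD and native Sox2. Those of native Nanog, native Oct4, native Nr5a2 and Nr5a2BiD lie outside it. Klf5 is not in the promoter table used, which matched 2 of the 3 members. Sequences are written 5′ to 3′ on the strand of the gene, and capitals mark GC boxes (GGGCGG or its complement), a motif chosen after the sequences were seen.
Klf2, chr8:72318812-72319061, plus strand: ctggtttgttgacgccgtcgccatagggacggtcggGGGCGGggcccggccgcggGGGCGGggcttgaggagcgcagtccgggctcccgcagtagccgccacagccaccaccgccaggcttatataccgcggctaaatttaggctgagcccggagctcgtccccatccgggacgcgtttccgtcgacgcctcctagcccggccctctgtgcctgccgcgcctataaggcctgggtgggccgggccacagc
Klf4, chr4:55532476-55532725, minus strand: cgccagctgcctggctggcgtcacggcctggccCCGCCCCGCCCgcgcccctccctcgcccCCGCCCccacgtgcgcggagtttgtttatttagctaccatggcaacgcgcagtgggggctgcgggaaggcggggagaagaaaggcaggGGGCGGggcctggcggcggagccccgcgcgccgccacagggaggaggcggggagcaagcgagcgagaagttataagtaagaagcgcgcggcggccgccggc

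The Klf2 promoter held 2 GC boxes and the Klf4 promoter 4. Over 32851 promoters of the same length, 32.7% held at least 1 GC box and 4.09% at least 4. The GC content was 71.2% for Klf2 and 74.0% for Klf4, against a median of 52.4% over all promoters, and the number of CpGs was 29 and 32, against a median of 6. None of the 9 motifs searched at summits was found in either stretch. Outside the Klf4 stretch, the AP-1 letters TGACTCA lay within 50 bp of the promoter summits of native Nanog, native Oct4 and Nr5a2BiD.

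At Klf4, the highest summits belonged to Sox2. In the region at +22.0 kb, downstream of the gene, native Sox2 reached 48 tags (score 374) and Sox2BiD 73 tags (score 695), with summits 7 bp apart and no peak in the other 6 libraries. The Sox2BiD peak scored above 97.4% of the peaks of its library. At +8.9 kb native Sox2 had 45 tags and Sox2BiD 68. In the same region, at +8.4 kb, native Nr5a2 had 20 tags and Nr5a2BiD 16, and each factor's summits lay beside its own motif, as in the sequences above. These Nr5a2 peaks scored low, 69.9 and 66.1, above 20.4% and 18.1% of the peaks of their libraries. At -14.8 kb native Sox2 had 32 tags and Sox2BiD 42, with no other library. All 6 native Sox2 regions of the Klf4 locus were also found in Sox2BiD, which had 4 more.

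Oct4 summits at Klf4 were highest upstream. In the region at -31.8 kb, Oct4BiD had 46 tags (score 455) and native Oct4 12 tags (score 54.2), near the lowest score called, at summits 2 bp apart beside the octamer. Nearer to the gene in the same region, from -30.9 to -30.7 kb, lay summits of native Nanog (11 tags), NanogBiD (14), native Sox2 (21) and Sox2BiD (26). At -46.9 kb the order of the forms was the opposite, with 30 tags in native Oct4 and 11 in Oct4BiD. Nanog shared that region, with 28 tags in the native library and 22 in NanogBiD, and there it was the native Nanog peak that held the highest score of its library at the locus, 412. At +12.6 kb Oct4BiD alone had a peak, of 39 tags, with an octamer 29 bp before the summit.

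Some Klf4 regions were common to most libraries. At +6.2 kb, just past the 3′ end of the gene, all 8 libraries had a summit. Its heights were 25 tags in native Nanog, 31 in NanogBiD, 27 in native Oct4, 23 in Oct4BiD, 35 in native Sox2, 40 in Sox2BiD, 16 in native Nr5a2 and 19 in Nr5a2BiD. At +17.5 kb, 6 libraries had summits of 13 to 20 tags, without the 2 Sox2 libraries. At +80.6 kb native Nr5a2 had 35 tags (score 510) and Nr5a2BiD 30 (score 267), 1 bp apart and in no other library, and at +56.9 kb Nr5a2BiD had 36 tags, its highest score at the locus (306), native Nr5a2 39 and Sox2BiD 12. By summed score, the first region of Nanog alone was at +78.4 kb (224, at most 16 tags), next to that at +58.1 kb (222, at most 19 tags).

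At Klf2, the highest summits belonged to Nr5a2. In the region at -57.9 kb native Nr5a2 had 74 tags (score 254, above 78.0% of the peaks of its library) and Nr5a2BiD 60 (score 277). Summits of Nanog (14 and 13 tags, native and fused) and Oct4 (14 and 26 tags), between -56.1 and -54.9 kb, lay in the same merged region, which was 4827 bp wide. At the promoters of the neighbours, native Nr5a2 had 60 tags at Fam32a (-98.6 kb, score 847, above 99.6% of the peaks of its library) and 52 at Ap1m1 (-78.9 kb), and Nr5a2BiD had 28 and 42. Both of these regions were found in 7 libraries, and are nearer to their own genes than to Klf2. At +12.8 kb native Nr5a2 had 42 tags and Nr5a2BiD 40, with no other library. The region at +64.1 kb, in an intron of Eps15l1, had 48 tags in native Nr5a2, 26 in Nr5a2BiD and 9 in NanogBiD.

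Sox2 at Klf2 was highest at -10.6 kb, with 30 tags in native Sox2 (score 212) and 54 in Sox2BiD (score 526), 14 bp apart and in no other library. The nearest start site is that of Gm10282, 3.2 kb away. Nanog was highest at -23.3 kb, with 22 tags in native Nanog (score 316) and 43 in NanogBiD (score 520), at summits 1 bp apart. Sox2 shared this region in the other direction, with 21 tags in the native library and 10 in Sox2BiD. At +96.3 kb, where the NANOG letters are printed above, native Nanog had 14 tags and NanogBiD 39, with no other library. Regions at -16.0 kb and +84.6 kb were each found in 6 libraries, the first without Oct4 and the second without native Oct4 and native Nr5a2. The first had 14 to 23 tags. The second had 25 tags in native Sox2 and 26 in Sox2BiD, and 8 to 12 in the other 4. The highest score of native Oct4 at Klf2 was at the Klf2 promoter (149) and that of Oct4BiD at the Ap1m1 promoter (210).

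At Klf5, the highest summits again belonged to Sox2. In the region at -33.9 kb native Sox2 had 46 tags (score 409) and Sox2BiD 78 (score 772), the highest summit of the 3 loci. Native Nr5a2 had a summit of 21 tags in this region, beside an NR5A motif, and the other 5 libraries had none. At -2.6 kb, upstream of the promoter peak, the heights were 14 tags in native Sox2, 44 in Sox2BiD, 21 in native Nanog and 35 in NanogBiD, with the Nanog summits 1 bp apart and no Oct4 or Nr5a2 peak. At +5.8 kb, in the gene, both Sox2 libraries (20 and 41 tags), both Nanog libraries (15 and 16) and Oct4BiD (13) had summits. The Oct4BiD score there, 51.25, was near the lowest score called. By summed score, the first region of Sox2 alone was at +68.0 kb (631, at most 29 tags), while that at -30.9 kb reached 33 tags with a lower score.

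Oct4 at Klf5 had its own regions. At +40.7 kb native Oct4 had 27 tags (score 263) and Oct4BiD 21 (score 235), with no other library. At +19.3 kb native Oct4 had 38 tags (score 246) and Oct4BiD 14 (score 50.27, near the lowest score called). The highest-scoring peaks of native Nanog (150), NanogBiD (186), Oct4BiD (310), native Nr5a2 (245) and Nr5a2BiD (285) at Klf5 were those of the Klf5 promoter. Nr5a2 counts were below the median gene here. Native Nr5a2 had 9 summits and Nr5a2BiD 4, against medians of 15 and 10 over all genes. Fewer summits were held by 28.7% and 20.9% of genes. None of the Nr5a2 summits at Klf5 was above 27 tags. The region of Nr5a2 alone with the highest summed score, at -27.1 kb, had 17 tags in the native library and 19 in Nr5a2BiD. The region of Nanog alone with the highest summed score, at -61.1 kb, had at most 15 tags, in NanogBiD.

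**Figure D2:**
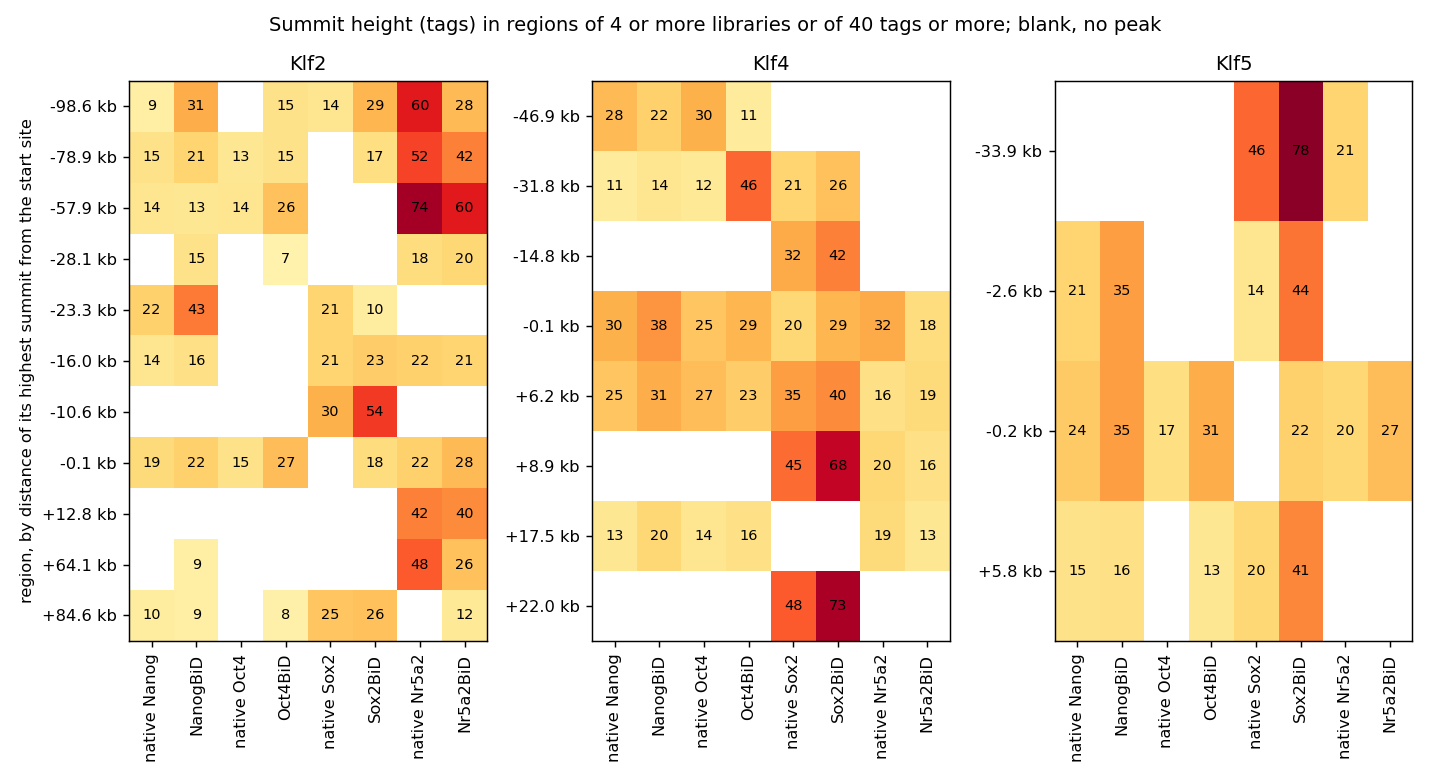
Height of the highest summit (tags, colour and number) in each library (columns) for regions with peaks in at least 4 libraries or with a summit of at least 40 tags; rows give the distance in kb of the region's highest summit from the first start site, and blank cells have no peak. Sox2 columns hold the darkest cells at Klf4 (48 and 73 tags at +22.0 kb) and Klf5 (46 and 78 tags at -33.9 kb), Nr5a2 columns at Klf2 (74 and 60 tags at -57.9 kb), and only the regions at -0.1 and +6.2 kb of Klf4 are filled in all 8 libraries.

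Whether the number of summits changed with the fusion was compared next. At Klf2 the number went from 6 in native Oct4 to 12 in Oct4BiD, from 5 in native Sox2 to 13 in Sox2BiD, from 10 in native Nanog to 14 in NanogBiD and from 23 in native Nr5a2 to 16 in Nr5a2BiD. At Klf4 the native and fused Oct4 libraries had 7 and 11 summits, the Sox2 libraries 6 and 11, the Nanog libraries 10 and 11 and the Nr5a2 libraries 14 and 10. At Klf5 the Oct4 libraries had 5 and 12, the Sox2 libraries 5 and 16, the Nanog libraries 7 and 5 and the Nr5a2 libraries 9 and 4. The fused library had more summits at all 3 genes for Oct4 and Sox2 and fewer for Nr5a2, while for Nanog it had more at Klf2 and Klf4 and fewer at Klf5.

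**Figure D3:**
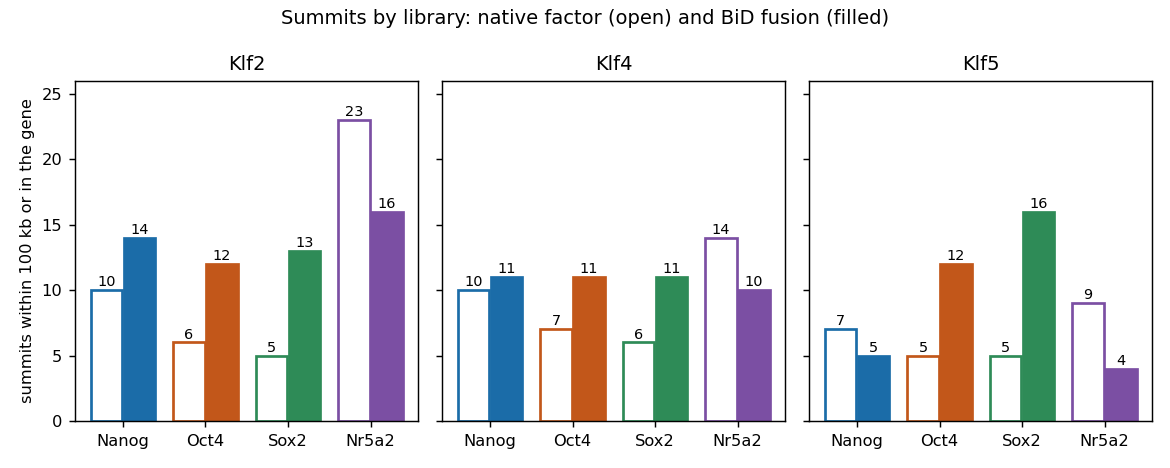
Number of summits in the gene or within 100 kb of the start site (bars, from 0) for each factor as the native form (open) and as the BiD fusion (filled), with 1 library per bar. Filled bars are taller for Oct4 and Sox2 at every locus and shorter for Nr5a2, as at Klf5 with 5 and 16 summits for Sox2 and 9 and 4 for Nr5a2.

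The same held for most genes, so each count is set beside all protein-coding genes with the same window. A gene was called changed when (summits of the fusion + 1) over (native summits + 1) was at least 2 in either direction. For Sox2, Klf2 and Klf5 were called higher, at log2 ratios of 1.22 and 1.5, and Klf4, at 0.78, was not, while 67.4% of all genes were called higher, 0.870% lower, and the median gene was at 1.19. For Oct4, Klf5 was called higher, at 1.12, with Klf2 at 0.89 and Klf4 at 0.58, against 37.3% of genes called higher, 1.73% lower and a median of 0.78. For Nr5a2, Klf5 was called lower, at -1, with Klf2 at -0.50 and Klf4 at -0.45, against 11.4% of genes called lower, 0.952% higher and a median of -0.50. For Nanog none of the 3 was called, at 0.45 for Klf2, 0.13 for Klf4 and -0.42 for Klf5, against 3.86% of genes called higher, 3.66% lower and a median of 0.17. Klf2 lay close to the median gene for Sox2 and Nr5a2. The Klf5 ratio for Nr5a2 lay above that of 6.88% of genes and that for Nanog above 8.09%, and the Klf4 ratio for Sox2 above 23.0%.

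The mean log2 ratio over the 4 factors was 0.52 at Klf2, 0.26 at Klf4 and 0.30 at Klf5. Signs were flipped factor by factor in an exact permutation test, two-sided, which gave p = 0.375, 0.375 and 0.625 (0.562, 0.562 and 0.625 adjusted over the 3 loci). With 4 factors this test cannot go below 1 in 8, so 0.05 was out of reach. Counted per 10000 peaks of the library, the means at Klf4 and Klf5 turned to -0.048 and -0.021. Without Sox2 the mean at Klf5 was -0.10.

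The highest summit of a locus was compared between the forms in the same way. At Klf2 it reached 30 and 54 tags in the native and fused Sox2 libraries, 22 and 43 in the Nanog libraries, 19 and 27 in the Oct4 libraries and 74 and 60 in the Nr5a2 libraries. At Klf4 the native and fused Sox2 libraries reached 48 and 73 tags, the Nanog libraries 30 and 38, the Oct4 libraries 30 and 46 and the Nr5a2 libraries 39 and 36. At Klf5 the Sox2 libraries reached 46 and 78, the Nanog libraries 24 and 35, the Oct4 libraries 38 and 34 and the Nr5a2 libraries 21 and 27. The fusion had the higher value in 3 of 4 factors at each gene. The mean log2 ratio was 0.50, 0.36 and 0.38 (the same exact permutation test, p = 0.25 and adjusted p = 0.25 for each). Divided by the read pairs the study lists for each library, the Oct4 ratio at Klf5 turned from -0.16 to 0.032, and the other 11 kept their sign.

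In regions with peaks of both forms of a factor, the fused summit was the higher in 14 of 16 Sox2 regions, 16 of 22 Nanog regions, 8 of 13 Oct4 regions and 11 of 27 Nr5a2 regions. These shares were not computed over the genome. The whole lists had median heights of 22 and 21 tags for Sox2, native and fused, and 21 and 21 for Nr5a2. For Nanog they were 16 and 20, and for Oct4 17 and 19. In the regions with both forms the median height was 25.5 tags in native Sox2 and 36.5 in Sox2BiD, and 22 tags in native Nr5a2 and 20 in Nr5a2BiD. Over 78 such pairs of summits, the median distance was 41.5 bp, and 58 pairs (74.4%) were within 100 bp. Summits of different factors in a shared region, 232 pairs of libraries, had a median distance of 124.5 bp, with 95 (40.9%) within 100 bp. Both sets hold overlapping peaks by construction, and the difference was not tested.

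How far the native and fused libraries of a factor shared regions was measured with the Jaccard index. In it the regions shared by 2 libraries are divided by those of either library. For the native and fused library of the same factor at Klf2 it was 0.2 for Oct4, 0.385 for Sox2, 0.56 for Nr5a2 and 0.714 for Nanog. At Klf4 it was 0.5, 0.545, 0.714 and 0.615 in this order, and at Klf5 0.308, 0.312, 0.3 and 0.714. The mean was 0.465 ± 0.222 (SD, n = 4 factors) at Klf2, 0.594 ± 0.0933 at Klf4 and 0.409 ± 0.204 at Klf5. Native and fused libraries of different factors had means of 0.215, 0.212 and 0.103. At each locus the true pairing gave the highest mean of the 24 pairings of fused with native libraries (exact permutation test, one-sided, p = 0.042, the smallest they can give, and adjusted p = 0.042 for each). Every pairing joins a native with a fused library, so the test cannot set the factor against the form. With peaks of a score of at least 100, the adjusted p was 0.0625 at Klf2, 0.0833 at Klf4 and 0.0625 at Klf5. At Klf2 the Oct4 pair, at 0.2, was below the highest value between a native and a fused library of different factors, 0.375, and below the 0.381 of NanogBiD with Nr5a2BiD, the highest value between factors.

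**Figure D4:**
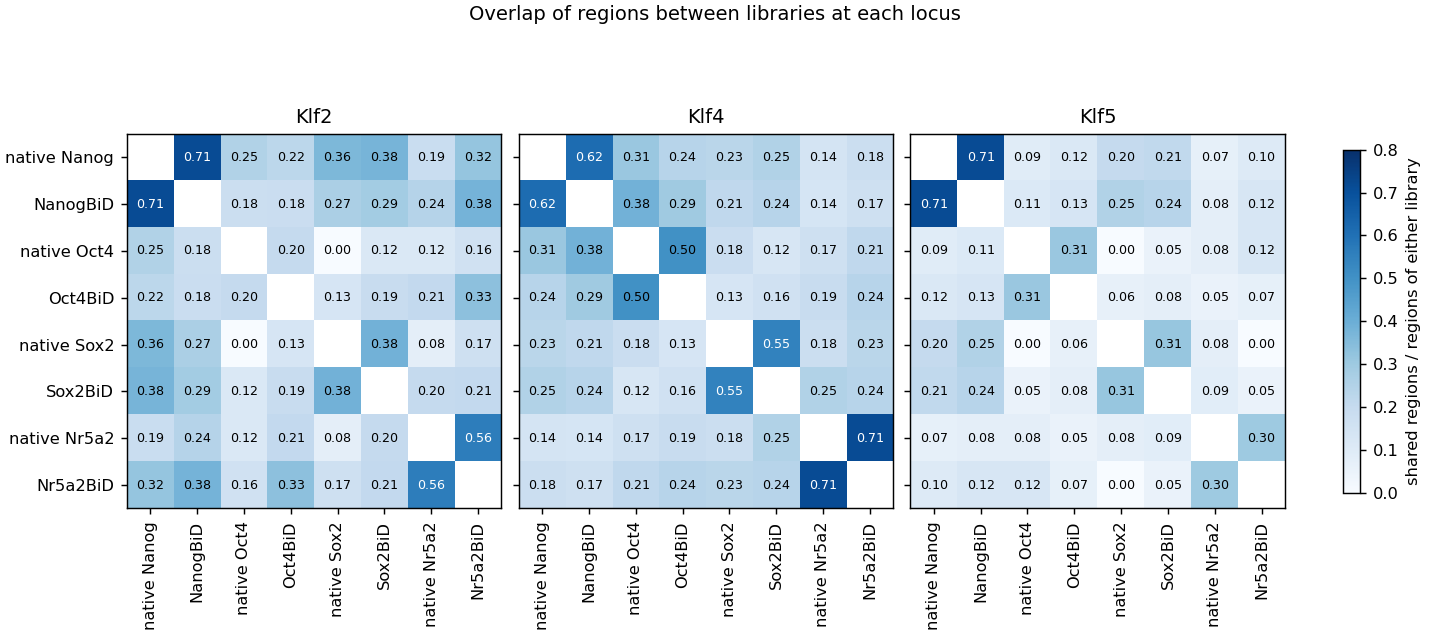
Jaccard index (colour and number, from 0 for no shared region) for each pair of the 8 libraries at Klf2, Klf4 and Klf5; rows and columns are libraries, in pairs of native and BiD form, and the diagonal is blank. The highest value of each panel (0.714) lies in a cell that joins both forms of a factor, as for Nanog at Klf5 and Nr5a2 at Klf4, and the Oct4 pair at Klf2 (0.2) is the palest of the 12 such cells.

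Peaks were then merged over all 8 libraries, where they overlapped by at least 1 bp, to follow recurrence. This gave 41 regions at Klf2, 32 at Klf4 and 38 at Klf5, or 111 of 306466 in the genome. Over the genome 46.0% of regions had a peak in 1 library only, 25.5% in both forms of 1 factor and in no other library, and 1.49% in all 8 libraries. Regions of 1 library numbered 19 at Klf2 (46.3%), 13 at Klf4 (40.6%) and 25 at Klf5 (65.8%). Regions of both forms of 1 factor alone numbered 8 at each gene. Regions in all 8 libraries numbered 0, 2 and 0. Regions in at least 6 numbered 6 (14.6%), 4 (12.5%) and 1 (2.63%), against 5.70% over the genome. The 2 regions of all 8 libraries, both at Klf4, were lost when summits within 200 bp were merged in place of peaks, and when peaks of a score under 100 were left out. No region had peaks in at least 3 BiD libraries and in no native library, and none the converse. Such regions were not counted over the genome, so this absence is not shown to be particular to the 3 loci.

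The forms differed in how far each was contained in the other. These shares were not computed over the genome. The whole lists held 58162 peaks in native Sox2 and 120594 in Sox2BiD, and 54794 and 93978 for Oct4. For Nanog they held 73465 and 75769, and for Nr5a2 108030 and 76217. Over the 3 loci, Sox2BiD had a peak in all 16 native Sox2 regions, and native Sox2 in 16 of 39 regions of Sox2BiD. Oct4BiD had a peak in 13 of 18 native Oct4 regions, and native Oct4 in 13 of 35 of Oct4BiD. NanogBiD had one in 22 of 26 native Nanog regions, and native Nanog in 22 of 29 of NanogBiD. For Nr5a2 the native library was the larger, with 27 of its 46 regions in Nr5a2BiD, and 27 of 30 regions of Nr5a2BiD in it. At Klf4 every one of the 10 Nr5a2BiD regions was also found in native Nr5a2, and at Klf5 native Sox2 had 5 of the 16 Sox2BiD regions.

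The letters of each factor's own motif lay within 50 bp of 5 of 53 Oct4 summits at the 3 loci (9.43%, exact Clopper-Pearson 95% interval 3.13 to 20.7; 7.68% of all summits of the Oct4 libraries), and of 0 of 189 summits of the other libraries, which allows a share of up to 1.59%. The SOX letters lay at 4 of 56 Sox2 summits (7.14%, 1.98 to 17.3; 2.84% of all), in 2 regions of Klf4, and at 0 of 186 others, which allows up to 1.61%. The NR5A letters lay at 16 of 76 Nr5a2 summits (21.1%, 12.5 to 31.9; 14.8% of all), 5 at Klf2, 6 at Klf4 and 5 at Klf5, and at 1 of 166 others, a NanogBiD summit at -15.7 kb of Klf2. The NANOG letters lay at 2 of 57 Nanog summits (3.51%, 0.428 to 12.1; 2.13% of all), both in the region at +96.3 kb of Klf2, and at 3 of 185 others. Over all summits of the other libraries, the share was 0.623% for the octamer, 0.310% for SOX, 0.979% for NR5A and 0.924% for NANOG. The limits given for 0 matches are 3 counts over the number of summits, not the exact interval. For each factor the interval holds the share over all summits of its own libraries. Summits of both forms are not independent, since they often read the same site. The joint OCT4-SOX2 letters TTGTNATGC were found at 0 of 242 summits, which allows a share of up to 1.24%, against 0.376% over all summits.

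In the reference, lower-case letters mark repeated sequence. The sequences printed above do not show this, since their capitals mark motifs only. Of the 16 Nr5a2 summits with NR5A letters at the 3 loci, 9 had these letters in repeated sequence (56.2%), against 26.4% of all Nr5a2 summits with the letters. No Oct4, Sox2 or Nanog match at the 3 loci lay in repeated sequence. The letters GGGNGTGG of Krüppel-like factors themselves lay at 15 of 242 summits (6.20%), against 3.24% of all summits, those of AP-1 (TGACTCA) at 15 (6.20%, against 7.31%), those of TEAD (CATTCCA or CATTCCT) at 17 (7.02%, against 7.58%) and those of RUNX (AACCACA) at 15 (6.20%, against 4.44%). The own motif was found at 4 of 85 summits in regions of 3 or 4 factors (4.71%, exact interval 1.30 to 11.6), at 8 of 48 in regions of both forms of 1 factor alone (16.7%, 7.48 to 30.2), at 8 of 57 in regions of 1 library (95% interval of the percentage 6.26 to 25.8) and at 7 of 52 in the remaining regions (13.5%, 5.59 to 25.8). The intervals overlap.

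The other genes of the Krüppel-like family show how the 3 members stand among their relatives. Summits of the 8 libraries summed to 27 (Klf8) to 181 (Klf12) over 14 other family genes, with a median of 81, against 99, 80 and 63 for Klf2, Klf4 and Klf5 and a median of 76 over all genes. In the Sox2 comparison 10 of the 14 were called higher with the fusion, against 67.4% of all genes, in the Oct4 comparison 8, against 37.3%, and in the Nanog comparison 1, against 3.86%, which was Klf8, with 0 native and 1 fused summit. In the Nr5a2 comparison Klf11 was called lower, against 11.4% of all genes, and none higher. The median log2 ratio of the 14 was 1 for Oct4, 1.07 for Sox2, -0.58 for Nr5a2 and 0.18 for Nanog, against 0.78, 1.19, -0.50 and 0.17 over all genes. In native Sox2, 7 of the 14 had a promoter summit, and 1 of the 3 members.

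Among 9 other regulators of the naive state (Esrrb, Tfcp2l1, Tbx3, Prdm14, Nanog, Stat3, Gbx2, Sall4 and Zfp42), 3 were called higher with NanogBiD, against 3.86% of all genes, Esrrb with 3 native and 14 fused summits, Gbx2 with 3 and 8, and Sall4 with 2 and 5, and Zfp42 was called lower, with 2 and 0, against 3.66%. Called higher were 3 with Oct4BiD, against 37.3% of all genes, and 5 with Sox2BiD, against 67.4%, and Nanog and Zfp42 were called lower with Nr5a2BiD, against 11.4%. Promoter summits were found for 2 to 5 of these 9 genes per library, and for all 3 members in every library but native Sox2, where over all genes the share was 25.2% in native Sox2 and 39.0% to 63.5% in the others.

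The genes whose counts over the 8 libraries were most like those of a member were found by the summed absolute difference. For Klf2 they were Rab13 and Rps27, each with a difference of 4 summits, and Ccdc106, with 5, against a median of 37 over all genes. Rab13 and Rps27 had the same count as each other in all 8 libraries, and whether these are the same peaks was not examined. For Klf4 the most alike genes were Zfp790 with 5, and Elac1 and Ppef2 with 6, against a median of 32. For Klf5 they were Nsrp1 with 5, Dnah12 with 6 and Brms1l with 7, against 39. In the order of libraries at Klf2, native Nr5a2 was highest (23 summits) and native Sox2 lowest (5). At Klf4 native Nr5a2 was again highest (14) and native Sox2 lowest (6), while at Klf5 Sox2BiD was highest (16) and Nr5a2BiD lowest (4). Over all genes the median count was likewise highest in native Nr5a2 (15) and lowest in native Sox2 (4). It was 12 in Sox2BiD and 10 in Nr5a2BiD. With 1 library a group, neighbours in these orders have no spread to be compared with.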

How the data were processed

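The deposited lists hold 1 peak and 1 summit file per library. Per the study's methods and the submitters' processing notes, the authors trimmed reads (Trim Galore 0.6.4), mapped them to mm10 (Bowtie2 2.4.5), removed repetitive and mitochondrial reads and those with mapping quality under 30 (SAMtools 1.16.1) and called peaks with MACS 1.4.2, with 1 tag kept per position, no model, a shift of 25 bp and no control named. Removal of repetitive reads lowers the signal where reads cannot be placed uniquely. The methods state that replicates were combined before peaks were called, while the reporting summary states that this CUT&Tag was done a single time without biological replicates, and p-values measure the spread between factors. The deposited score is the authors' 10 times −log10 p-value of a peak, and the height of a deposited summit is a signal in whole tags from the authors' peak caller, not scaled to depth. The number and height of peaks can depend on depth. By the read pairs the study lists, the deeper form had more peaks for Nanog and fewer for Oct4, Sox2 and Nr5a2. Open chromatin cut without bound factor cannot be told apart from binding.

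Summits were assigned with GENCODE M21 to 3 loci. Regions were formed by an overlap of at least 1 bp. Ratios used a pseudocount of 1. Tests were the exact sign-flip test over 4 factors and the exact permutation test over 24 pairings, with Benjamini-Hochberg adjustment over 3 loci. Intervals are exact at 95%, and floors of 3 counts cover counting error only. Scripts were tested on simulated data. Named regions were those at member promoters, the highest-scoring peak of each library at each locus, regions of at least 6 libraries, and for each factor the highest-scoring region of both forms alone. At Klf2 the regions at +64.1 kb, at Klf4 those at -14.8, +8.9 and +12.6 kb and at Klf5 those at -2.6, +5.8 and +19.3 kb were added after their values were seen. The members and lists were chosen with earlier results of these data known. Alternatives were the window, score, number of peaks, overlap, scaling, promoter distance and motif window. Python 3.11.15, NumPy 2.4.6, pandas 2.3.3, SciPy 1.17.1 and matplotlib 3.10.9 were used.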

Additional observations from a re-analysis of the deposited data

Results flagged for a closer look

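The log2 ratio of summits, fusion over native, had opposite signs in different factors at each gene. For Sox2 it was 1.22 at Klf2, 0.78 at Klf4 and 1.5 at Klf5, and for Oct4 it was 0.89, 0.58 and 1.12. For Nr5a2 it was -0.50 at Klf2, -0.45 at Klf4 and -1 at Klf5. For Nanog it was 0.45, 0.13 and -0.42, so that the sign at Klf5 was not that at Klf2 and Klf4. The ratios of the whole lists were 1.05 for Sox2, 0.78 for Oct4, -0.50 for Nr5a2 and 0.045 for Nanog, with the sign of the Klf2 and Klf4 ratios for every factor. With 1 library of each form, the difference between factors was not tested.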

How the results depend on the processing

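Of 110 values under alternative settings, 78 kept their direction and side of the threshold, or moved by less than 1 SD or 1.5 times. The sign-flip test over 4 or fewer factors cannot reach 0.05. The mean log2 ratios of summits and of the highest summit could therefore turn direction but not change side. A kept direction can hide a loss of size. The mean log2 ratio of summits at Klf2 fell from 0.52 to 0.056 with the 50000 highest-scoring peaks. That at Klf4 fell from 0.26 to 0.041 with scores of at least 100. The mean log2 ratio of summits at Klf4 turned to -0.060 when each list was limited to its 50000 highest scores and to -0.048 per 10000 peaks, where that at Klf5 turned to -0.021. With 1 factor left out in turn it lay between 0.28 and 0.85 at Klf2, 0.088 and 0.50 at Klf4, and -0.10 (without Sox2) and 0.73 at Klf5. The mean log2 ratio of the highest score at Klf4 was -0.010, in place of the 0.36 of the highest height. With scores of at least 100, the mean Jaccard index was 0.517 at Klf2, 0.431 at Klf4 and 0.433 at Klf5, with adjusted p-values past 0.05 in the exact permutation test. With 1 factor left out it lay between 0.382 and 0.553, 0.554 and 0.625, and 0.307 and 0.445, where 3 factors cannot give a p under 0.167. Regions fell from 111 to 68 with scores of at least 100 and to 64 with the 50000 highest-scoring peaks, regions of 1 library from 57 to 33 and 28, and regions of all 8 libraries from 2 to 0 under both and with summits within 200 bp. The Klf4 promoter had a summit in 5 libraries within 500 bp. Within 25 bp of the summit the own motif was found at 0 Nanog, 2 Oct4 and 6 Nr5a2 summits, and within 100 bp at 25 Nr5a2 summits. For the turned signs and lost calls the cause was not tested, except that stricter lists hold fewer peaks and wider windows more letters. No paired analysis by replicate was possible because the labels carry no replicate numbers and each group holds 1 library, so that the pairs tested were the native and fused forms of each factor. The lists give no read totals, so a site without a peak is not shown to be unbound.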
